A study of Mus musculus with 6 samples.

Results

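The RGS genes encode regulators of G-protein signalling, and 10 of them, Rgs2, Rgs3, Rgs4, Rgs5, Rgs10, Rgs12, Rgs14, Rgs16, Rgs19 and Rgs20, were taken by symbol from the 22375 rows of a table of FPKM values. FPKM is the number of fragments per kilobase of transcript, scaled to the mapped total of the library, so levels of different genes can be compared per length. The set was chosen by the high level of Rgs16 in stretched cells, so every difference between the groups in these 10 genes is given as a description, without a p-value.

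RNA was sequenced from C2C12, an immortalised line of mouse myoblasts that fuse into myotubes when serum is withdrawn. The CON group held 3 libraries of cells that were not stretched, and the 4H group held 3 libraries of cells stretched in cycles at 15% elongation for 4 h. Both groups were the same line, with no genetic change stated, kept in medium with fetal bovine serum, penicillin and streptomycin. Stretched cells sat on poly-lysine-coated elastic plates at near confluence, and whether the CON cells sat on such plates is not stated. The libraries were poly(A)-selected, strand-specific and paired-end, and the labels call each a replicate biosample without saying whether these were separate cultures, so every p-value measures the spread between these libraries only. The data come from 1 cell line at 1 time of stretch, and addressed which transcripts change in myoblasts under mechanical load.

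A heterotrimeric G protein is switched on when a receptor loads its alpha subunit with GTP, and is switched off when that GTP is hydrolysed. RGS proteins bind the active alpha subunit and speed up the hydrolysis, which shortens the signal, and many of them are themselves controlled at the level of transcription and protein turnover. The R4 subfamily holds small proteins with little more than the RGS domain and acts on alpha subunits of the i/o and q classes, the R12 subfamily acts on the i/o class and includes large scaffold proteins, and the RZ subfamily carries a cysteine string that is palmitoylated.

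Of the 10 genes, Rgs2, Rgs3, Rgs4, Rgs5 and Rgs16 are of the R4 subfamily, Rgs10, Rgs12 and Rgs14 of R12, and Rgs19 and Rgs20 of RZ. The coding region of the principal transcript in GENCODE M21 (GRCm38) had 201 codons for Rgs16, 205 for Rgs4, 181 for Rgs5, 211 for Rgs2, 181 for Rgs10, 216 for Rgs19 and 239 for Rgs20, against 547 for Rgs14, 966 for Rgs3 and 1381 for Rgs12. Rgs14, Rgs3 and Rgs12 were thus the long members. For the R4 members the start of the coding sequence is shown, because the residue after the first methionine marks some of these proteins for degradation. Rgs16, Rgs4 and Rgs5 have cysteine there, and once the methionine is removed this cysteine can be oxidised, arginylated by Ate1 and recognised by ubiquitin ligases of the Ubr family. Each line gives the first 30 coding bases, 5′ to 3′, with the second codon in capitals.
Rgs16: atgTGCcgcaccctagccaccttccccaac
Rgs4: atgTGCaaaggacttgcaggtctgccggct
Rgs5: atgTGTaagggactggcagctctgccgcac
Rgs2: atgCAAagtgccatgttcctggctgtccag
Rgs3: atgAACcgcttcaatgggctctgcaaagtg
The second codon is TGC in Rgs16 and Rgs4 and TGT in Rgs5, all of which encode cysteine, while Rgs2 has CAA and Rgs3 has AAC. None of the R12 and RZ members has cysteine at this place in its principal transcript. Among 21588 coding genes of GENCODE M21 whose principal transcript starts with ATG, 180 (0.834%) have a cysteine second codon.

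The sequence before the start site is shown for Rgs16 and Rgs19, the tested members with the highest and the lowest difference between the groups. Each is the 250 bases before a start site in RefSeq (GRCm38.p6), at chr1:153740103-153740352 on the + strand for Rgs16 and at chr2:181693978-181694227 on the − strand for Rgs19. Capitals mark matches to the motifs searched.
Rgs16: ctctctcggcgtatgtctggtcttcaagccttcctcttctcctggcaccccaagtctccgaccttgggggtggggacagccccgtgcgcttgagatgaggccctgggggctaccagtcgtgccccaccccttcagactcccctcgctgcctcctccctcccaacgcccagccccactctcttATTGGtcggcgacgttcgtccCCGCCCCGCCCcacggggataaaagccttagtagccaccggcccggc
Rgs19: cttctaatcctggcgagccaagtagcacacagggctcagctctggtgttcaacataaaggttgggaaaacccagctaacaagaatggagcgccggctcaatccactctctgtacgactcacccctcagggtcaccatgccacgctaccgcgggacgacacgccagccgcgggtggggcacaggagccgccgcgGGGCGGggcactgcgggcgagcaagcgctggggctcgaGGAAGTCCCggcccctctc
Both strands were searched from 250 bases before to 50 after each start, and the share of all 32851 RefSeq promoters of that length with each motif is given for comparison. The motifs were the AP-1 site TGANTCA (7.81% of promoters), the core of the cyclic AMP response element TGACG (20.8%), the TEAD site CATTCC (14.7%), the NF-kB site GGGANTTCC (1.68%), the SRF CArG box (1.63%), the TATA box TATAAA (13.6%), the CCAAT box CCAAT (37.4%) and the GC box GGGCGG (35.7%). The Rgs16 window held a CCAAT box on the other strand starting at -68 and GC boxes on the other strand starting at -47 and -42, which overlap by 1 base, counted from -1 at the base before the start. No other motif of the set was found in it, and a match describes letters only, not binding. Of 3 start sites listed for Rgs19, the window shown held a GC box at -57 and an NF-kB site on the other strand at -19. The window of the second start held the same NF-kB letters at -186 with GC boxes at -224 and -94, and the third held none of the motifs. RefSeq promoters were given for 8 of the 10 members, with none for Rgs14 and Rgs20. Of the motifs other than the CCAAT and GC boxes, Rgs2 held the cyclic AMP element core at -185 and -67, and Rgs4 held it at -236 and -141 together with a TATA box at -31. Rgs3 held a TATA box at -100 and -177 in the windows of different start sites, and the second start site listed for Rgs12 had the cyclic AMP element core at -82 and an AP-1 site at -22, where the pattern TGANTCA matches both strands. The windows of Rgs5 and Rgs10 held none of them.

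Before the members are described, the libraries and cells are summarised. The FPKM values summed to between 395790 and 397260 in CON and between 385146 and 387516 in 4H, and FPKM values do not give the number of reads, so the depth is unknown. Pearson's r of log2 values across genes was 0.992 to 0.993 within groups and 0.967 to 0.970 between them. Of 8 myoblast markers, 5 had a mean of at least 0.5 FPKM, and the list summed to between 154.2 and 158.7 FPKM in CON and between 226.9 and 238.9 in 4H. Within it, Myod1 was at 4.48 to 5.55 FPKM in CON and 17.4 to 18.8 in 4H, Myf5 was at 15.3 to 16.8 and 8.75 to 10.998, and Myog did not exceed 0.281. Of the other cell types, 3 of 6 pericyte and smooth muscle markers had such a mean (sum 38.9 to 41.4 FPKM in CON, 36.5 to 37.3 in 4H), as did 2 of 5 fibroblast markers (3.78 to 4.19, and 5.999 to 7.65), 1 of 5 immune markers (6.73 to 8.51, and 15.0 to 17.6), 1 of 5 neural markers (0.939 to 1.53, and 0.957 to 1.21) and 0 of 5 endothelial markers (0.101 to 0.122, and 0.254 to 0.387). The immune sum was almost all Cd68, a lysosomal protein, while Ptprc and Adgre1 were at 0 in every library, as were Emcn and Rbfox3. The part of these marker levels in the RGS values was not tested.

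Of the 10 members, 7 had a mean of at least 0.5 FPKM and entered the fit over 11593 genes, which used limma on log2(FPKM + 0.5) and called a gene when its adjusted p did not exceed 0.05 and its log2 difference was 1 or more in either direction. By both thresholds, 1 member was higher in 4H, against 2.61% of all genes tested, and 0 were lower. By the adjusted p alone, 4 were higher, against 22.6% of all genes, and 1 was lower, against 24.1%. Of the 4 that were higher, Rgs3 lost the call with a replicate block or with any library left out. The groups did not overlap in 5 of the 7, against 56.7% of all genes. The members were chosen in this contrast, so nothing is read from these shares. The median log2 difference was 0.15 over the 7 members and -0.01 over all genes tested. With 3 libraries against 3, an exact permutation test of a single gene cannot go below p = 0.1.

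**Figure D1:**
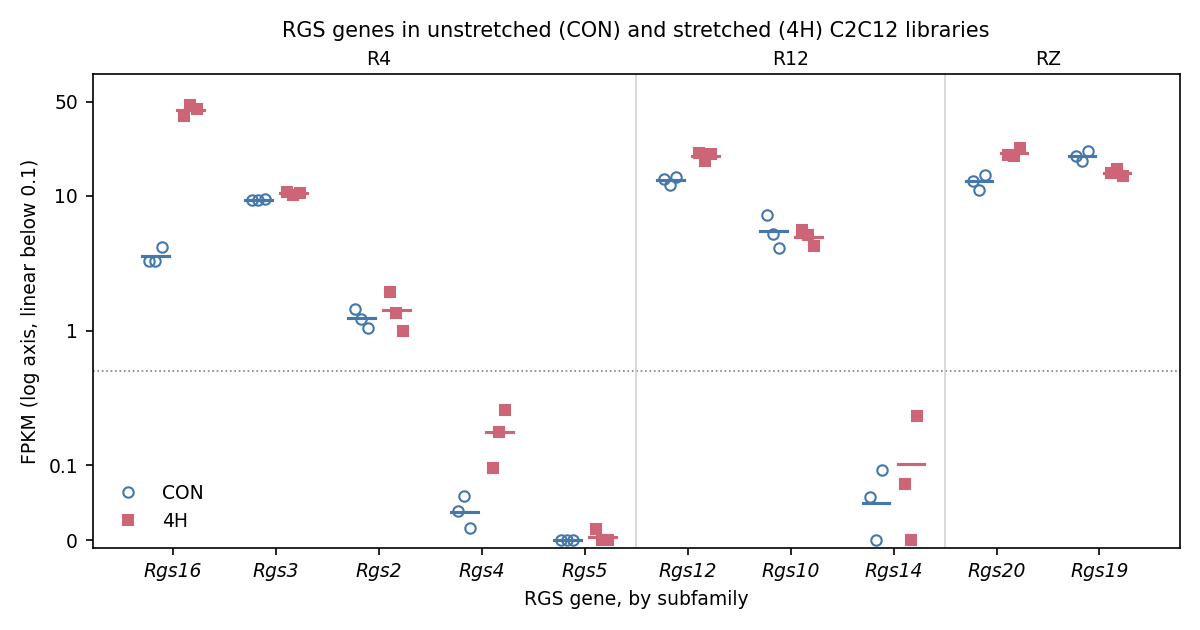
FPKM of each RGS gene in the 3 CON (open circles) and 3 4H libraries (filled squares), on a log axis that is linear below 0.1, with bars at the group means and a dotted line at the 0.5 FPKM filter. Rgs16 lies at 3.28 to 4.19 FPKM in CON and at 39.1 to 47.0 in 4H, while Rgs19 is the tested member whose 4H values lie below all CON values.

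Rgs16 (ENSMUSG00000026475) encodes a small R4 protein that acts on alpha subunits of the i/o and q classes and is known as an inducible gene in many cell types. It was at 3.29, 3.28 and 4.19 FPKM in the CON libraries and reached 39.1, 47.0 and 44.5 FPKM in the 4H libraries. The lowest 4H library lay far above the highest CON library, and the gap was larger than the spread within either group. The mean was 3.59 ± 0.523 FPKM in CON and 43.5 ± 4.03 in 4H (SD, n = 3 each), a ratio of 12.1, with a log2 difference of 3.43 (SE 0.10). By its level, Rgs16 stood above 20.4% of the genes tested in CON and above 85.9% in 4H, and its difference ranked 2 from the highest of 11593. In bulk RNA, more cells that carry a transcript and more of it per cell cannot be told apart. The gene lies at chr1:153740349-153745468 on the + strand with 1 transcript of 5 exons. An antisense gene, Gm28513, shares 236 of its exonic bases (10.1%), and whether fragments were counted by strand is not stated.

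The other R4 members did not share the size of this difference. Rgs3 (ENSMUSG00000059810, chr4:62559847-62704001, + strand), which acts on the i/o and q classes and has long isoforms with further domains, was at 9.34, 9.32 and 9.42 FPKM in CON and at 10.6, 10.2 and 10.5 in 4H. The groups were apart but close, with means of 9.36 ± 0.0497 and 10.4 ± 0.244 FPKM, a ratio of 1.11 and a log2 difference of 0.15 (SE 0.05). With each library left out in turn, the log2 difference ranged from 0.14 to 0.17. The table has 1 value for this gene, which has 17 transcripts and 8 coding start sites in GENCODE M21, so isoforms were not resolved. Of its transcript sequence, read as stretches of 75 bases, 10.2% also occurs in the gene Gm5763, and how reads from shared sequence were counted is not stated.

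Rgs2 (ENSMUSG00000026360, chr1:143999338-144004161, − strand), an R4 protein that prefers alpha subunits of the q class and is widely known as an early response gene, was at 1.44, 1.22 and 1.04 FPKM in CON and at 1.93, 1.36 and 0.994 in 4H. The groups overlapped, as the lowest of the 6 values was a 4H library and so was the highest. Its log2 difference was 0.13 (SE 0.19), which became -0.05 without 4H replicate 1 and 0.30 without 4H replicate 3. The sign of the Rgs2 difference thus rested on a single library.

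Rgs4 (ENSMUSG00000038530, chr1:169741477-169747642, − strand) and Rgs5 (ENSMUSG00000026678, chr1:169655501-169695813, + strand), known from neurons and from pericytes, were under the filter and were not tested. Rgs4 was at 0.0398, 0.0595 and 0.0158 FPKM in CON and at 0.0972, 0.179 and 0.257 in 4H, so the 4H libraries were all higher, at levels of at most 0.257 FPKM. Rgs5 was listed at 0 in all 3 CON libraries and in 2 of the 3 4H libraries, with 0.0145 FPKM in 4H replicate 1. Rgs16, Rgs4 and Rgs5, which all have a second codon for cysteine as shown above, were therefore at very different levels. Rgs16 was the only one of them above the filter.

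Among the R12 members, Rgs12 (ENSMUSG00000029101, chr5:34949445-35039644, + strand) is a large scaffold that joins an RGS domain to Ras-binding and GoLoco domains, the last of which holds alpha i subunits in their GDP form. It was at 13.4, 12.0 and 13.9 FPKM in CON and at 20.98, 18.2 and 20.6 in 4H. All 4H libraries were above all CON libraries. The means were 13.1 ± 0.982 and 19.9 ± 1.49 FPKM (SD, n = 3 each), with a log2 difference of 0.59 (SE 0.07). With 18 transcripts and 12 coding start sites in GENCODE M21, this gene too was measured without resolving isoforms.

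Rgs10 (ENSMUSG00000030844, chr7:128373621-128418758, − strand), a short R12 protein with little beyond its RGS domain, was at 7.21, 5.201 and 4.11 FPKM in CON and at 5.61, 5.12 and 4.25 in 4H. The 4H values lay inside the CON range. Its CON libraries had the widest spread of the tested members relative to their mean, 5.51 ± 1.58 FPKM, against 5.00 ± 0.687 in 4H. The log2 difference was -0.10 (SE 0.18), and it was 0.09 without CON replicate 1 and -0.28 without CON replicate 3. Rgs14 (ENSMUSG00000052087, chr13:55369732-55384687, + strand), a scaffold with the same kinds of domain as Rgs12, was under the filter at 0.0578, 0 and 0.0938 FPKM in CON and 0.0756, 0 and 0.232 in 4H, which overlapped.

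The RZ members differed in direction. Rgs20 (ENSMUSG00000002459, chr1:4909576-5070285, − strand), which is known to act on alpha z and other i/o subunits, was at 12.96, 11.2 and 14.4 FPKM in CON and at 20.0, 20.0 and 22.6 in 4H. The groups did not overlap, with means of 12.8 ± 1.61 and 20.9 ± 1.53 FPKM (SD, n = 3 each), a ratio of 1.63 and a log2 difference of 0.68 (SE 0.09). Rgs19 (ENSMUSG00000002458, chr2:181688419-181693977, − strand), also called GAIP and known to act on alpha i3, was at 19.8, 18.2 and 21.5 FPKM in CON and at 14.7, 15.8 and 14.1 in 4H. It was the only tested member with every 4H library below every CON library, and its means were 19.8 ± 1.61 and 14.9 ± 0.846 FPKM, a log2 difference of -0.40 (SE 0.07). Taken within each library, the ratio of Rgs20 to Rgs19 was 0.645 ± 0.0302 in CON and 1.41 ± 0.175 in 4H, so the order of the 2 genes was turned round in all 3 4H libraries. Rgs20 shares 127 exonic bases (3.00%) with Atp6v1h on the other strand, a gene at 52.1 to 55.4 FPKM in the 6 libraries.

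**Figure D2:**
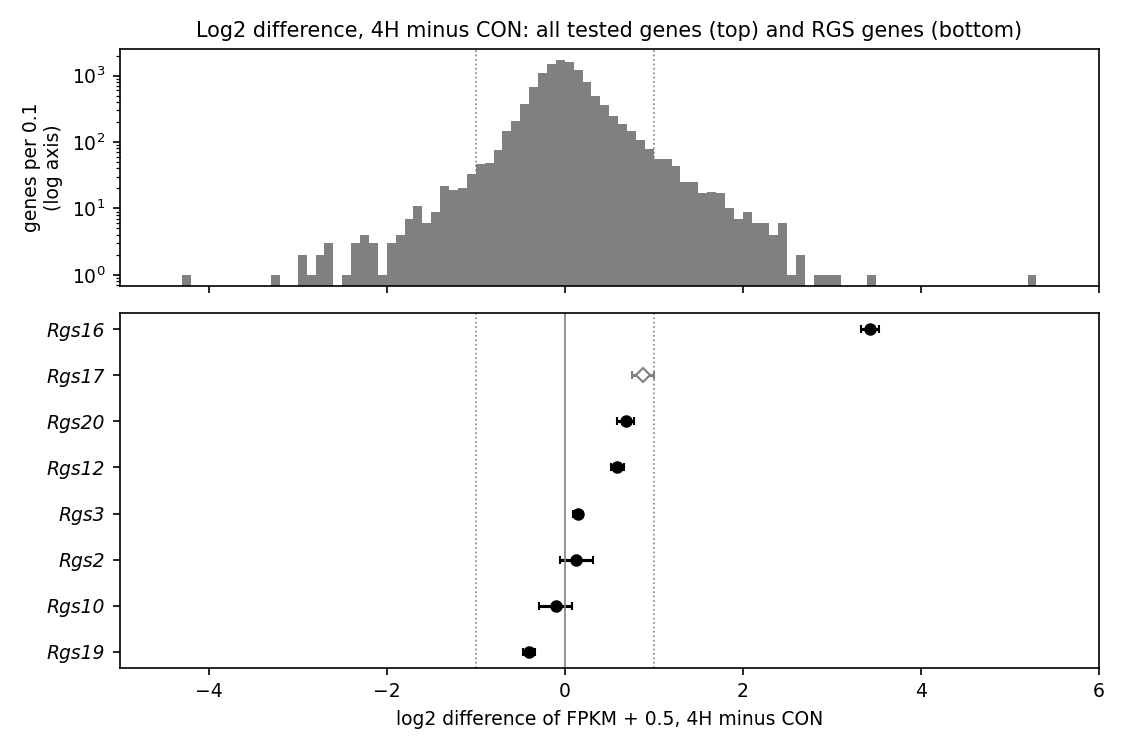
Log2 difference of FPKM + 0.5, 4H minus CON, for all 11593 genes tested (top, histogram with a log count axis) and for the 7 tested RGS members (filled circles) and Rgs17 (open diamond), with bars of 1 SE and dotted lines at -1 and 1. Rgs16 at 3.43 is the only RGS gene beyond the dotted lines, and Rgs19 at -0.40 is the lowest.

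The order of levels differed between the groups. From highest to lowest in CON, the members were Rgs19, Rgs12, Rgs20, Rgs3, Rgs10, Rgs16, Rgs2, Rgs14, Rgs4 and Rgs5. Neighbours whose ranges over 3 libraries overlapped were Rgs12 and Rgs20, Rgs10 and Rgs16, and Rgs14 and Rgs4. In 4H the order was Rgs16, Rgs20, Rgs12, Rgs19, Rgs3, Rgs10, Rgs2, Rgs4, Rgs14 and Rgs5, with overlapping ranges for Rgs20 and Rgs12, Rgs4 and Rgs14, and Rgs14 and Rgs5. Rgs16 thus stood at place 6 in CON and place 1 in 4H. Its ratio to Rgs19 within each library was 0.180 ± 0.0145 in CON and 2.93 ± 0.253 in 4H.

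Summed over all 22 genes named RGS, the level was 68.9, 61.4 and 69.8 FPKM in CON and 115.4, 119.9 and 120.7 in 4H. The means were 66.7 ± 4.60 and 118.7 ± 2.85 FPKM (SD, n = 3 each). Without Rgs16 the sums were 63.1 ± 4.32 and 75.1 ± 1.93 FPKM, so most of the difference in the sum was in this gene. Rgs16 made up 4.77% to 6.005% of the sum in CON and 33.9% to 39.2% in 4H. With it, the share of the R4 subfamily was 20.5% to 22.6% in CON and 44.9% to 48.9% in 4H. The share of RZ was 48.7% to 52.5% and 31.2% to 32.2%, and that of R12 was 25.9% to 29.99% and 19.5% to 23.1%. The RZ and R12 shares were smaller in 4H although their mean summed FPKM was larger, at 33.4 ± 3.25 and 37.6 ± 1.25 for RZ and 18.6 ± 1.81 and 25.0 ± 1.66 for R12. The RZ sums overlapped between the groups, with 36.6 FPKM in CON replicate 3 and 36.4 in 4H replicate 1. The R7 subfamily, known from neurons, did not exceed 0.823% of the sum, at 0.223 to 0.567 FPKM in CON and 0.379 to 0.612 in 4H.

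**Figure D3:**
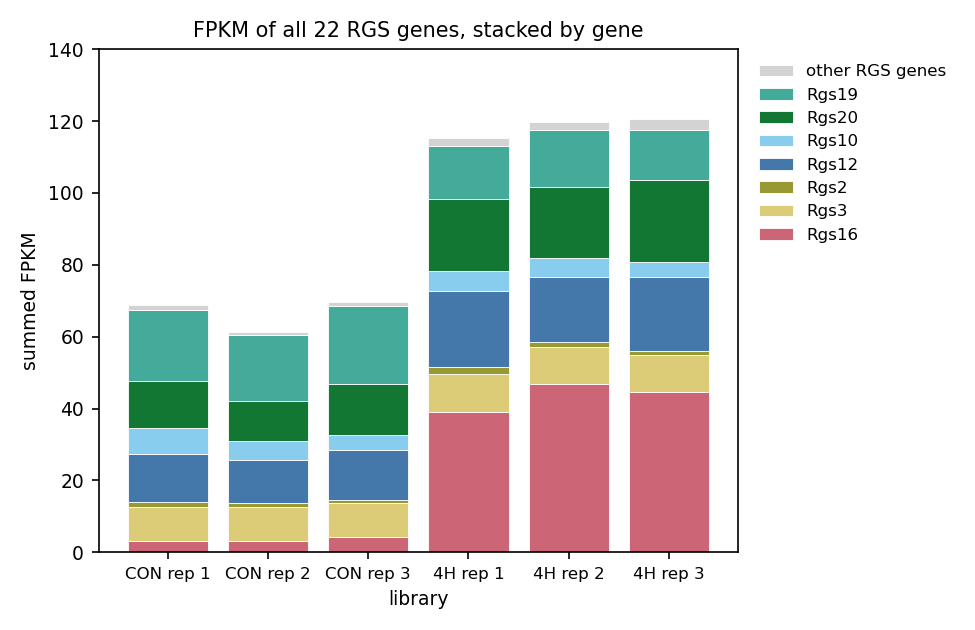
FPKM of the 22 RGS genes stacked by gene in each library, with the genes outside the 7 tested members in grey. The 3 CON bars reach 61.4 to 69.8 FPKM and the 3 4H bars 115.4 to 120.7, with Rgs16 at the base making up 33.9% to 39.2% of each 4H bar.

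Of 14 further genes in the RGS list, Rgs17 alone had a mean of at least 0.5 FPKM. Rgs17, the RZ protein closest in kind to Rgs20, was at 0.784, 0.713 and 0.765 FPKM in CON and at 1.64, 1.70 and 2.11 in 4H. It rose by 0.88 on the log2 scale (SE 0.12, limma adjusted p = 0.000587), below the threshold of 1. With a pseudocount of 0.1 and after rescaling to TPM it passed both thresholds. Rgs1, Rgs13, Rgs18 and Rgs21, which lie in a row with Rgs2 on chromosome 1, were listed at 0 in all 6 libraries, as were Rgs6, Rgs22 and Rgsl1. The highest value among the remaining genes of this list was 0.489 FPKM, for Rgs9 in 4H replicate 1. Rgs8, the nearest coding gene before Rgs16 at a gap of 40025 bases, did not exceed 0.0209 FPKM. Of the 10 members, 5 lie on chromosome 1 (Rgs2, Rgs4, Rgs5, Rgs16 and Rgs20), and among them only Rgs4 and Rgs5 are direct neighbours, with a gap of 45663 bases. No stretch of 75 bases was shared between the transcripts of any members.

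The genes around the RGS proteins in the pathway were counted from 15 lists with 111 genes, of which 68 were tested. By the adjusted p, 22 rose, against 22.6% of all genes tested, 6 fell, against 24.1%, and 40 did not pass, with a median log2 difference of 0.04 against -0.01 over all genes tested. The same shares, 22.6% higher and 24.1% lower, are the comparison for the counts of each list below. No test of the lists was made. Of these 28 calls, 22 held in all 16 settings and 6 (Gng10, Metap1, Metap2, Pde3a, Pde4a and Snx25) were lost in at least 5 of them. By both thresholds, 1 pathway gene was higher, against 2.61% of all genes tested, and this was Gngt2, which entered the test only through its 4H level.

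Of the alpha subunits that RGS proteins act on, 2 of 4 tested in the i/o class rose, against 22.6% of all genes tested. Gnai2, the most abundant of that class, had a mean of 182.4 ± 0.346 FPKM in CON and 204.7 ± 5.96 in 4H (log2 0.17, adjusted p = 0.00195). Gnao1 was at 22.9 ± 0.372 and 29.9 ± 0.176 FPKM (log2 0.38, adjusted p = 7.70e-05). Gnai3 (log2 -0.0043) and Gnaz (log2 0.39) did not pass, and neither did the tested genes of the q class (Gnaq, Gna11), the s class (Gnas) and the 12/13 class (Gna12, Gna13), with log2 differences from -0.12 to 0.13. The classes named above as those on which R4 and R12 proteins act are i/o and q. No tested alpha subunit of any class met the threshold of 1 on the log2 scale. Among 8 tested proteins with an RGS homology domain outside the family, 2 rose, Arhgef12 (log2 0.17, adjusted p = 0.0134), and Snx25, a sorting nexin (log2 0.18, adjusted p = 0.0363). The call for Snx25 was lost with a replicate block and without CON replicate 1 or 3 or any 4H library, with an adjusted p of 0.0637 to 0.113.

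Beta and gamma subunits form the partner that is released with the alpha subunit. Of 4 beta subunits tested, Gnb4 rose from 11.9 ± 0.734 to 16.6 ± 0.481 FPKM (log2 0.47, adjusted p = 0.000294), and Gnb1, Gnb2 and Gnb5 did not pass (log2 -0.04, 0.01 and 0.0016). Of 7 gamma subunits tested, 1 rose, against 22.6% of all genes tested, and 3 fell, against 24.1%. Gngt2, known from cone photoreceptors, was at 0, 0.191 and 0.378 FPKM in CON and at 3.96, 3.17 and 2.74 in 4H (log2 2.48, SE 0.22, adjusted p = 4.72e-05). Its CON mean of 0.190 FPKM was under the filter, so it had to differ to be tested. Its difference ranged from 1.85 with a pseudocount of 1 to 3.80 with 0.1, and 234 of its exonic bases (12.5%) are shared with Abi3 on the other strand, which was at 0.0285 to 0.360 FPKM. Gng8 fell from 1.79 ± 0.657 to 0.671 ± 0.247 FPKM (log2 -0.95, adjusted p = 0.0130), and it passed both thresholds in 6 of 16 settings. The others that fell were Gng5, from 90.2 ± 4.203 to 68.9 ± 3.49 FPKM, and Gng10, from 54.1 ± 2.99 to 47.4 ± 2.80. The call for Gng10 was lost with no trend in the fit, with TPM, and without CON replicate 2 or 3 or 4H replicate 1 or 2. Over these settings its adjusted p was 0.0517 to 0.0809.

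Receptor kinases and arrestins end a signal at the receptor itself, and 2 of 6 tested rose, against 22.6% of all genes tested. Arrb1, which encodes beta-arrestin 1, went from 3.32 ± 0.207 to 6.08 ± 0.226 FPKM (log2 0.79, adjusted p = 7.63e-05), and Grk6, a receptor kinase, from 48.3 ± 4.09 to 70.1 ± 5.47 (log2 0.53, adjusted p = 0.000570). Of 7 modulators and chaperones of alpha subunits, Ric8b, a chaperone, rose (log2 0.25, adjusted p = 0.00780). For all of these 3 genes, picked by their adjusted p, the 4H libraries lay above the CON libraries. Groups did not overlap, in either direction, in 56.7% of all genes tested.

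Downstream of the alpha subunits, the adenylyl cyclases Adcy7 and Adcy6 rose, 2 of 4 tested, against 22.6% of all genes tested. Adcy7 was at 55.3, 57.1 and 54.3 FPKM in CON and 83.0, 83.9 and 86.0 in 4H (log2 0.60, adjusted p = 3.34e-06), and Adcy6 was at 19.3 ± 0.636 and 24.2 ± 1.43 FPKM (log2 0.32, adjusted p = 0.00171). Plcb3, a phospholipase C that the q class and beta-gamma activate, was the only one of 3 tested to pass (log2 0.44, adjusted p = 4.40e-05). Of 5 tested genes of protein kinase A, the regulatory subunits Prkar2a (log2 0.23) and Prkar2b (log2 0.18) rose, with adjusted p of 0.00359 and 0.00564. Of 7 tested cyclic AMP phosphodiesterases, 3 rose, against 22.6% of all genes tested, and 2 fell, against 24.1%. Pde4d (log2 0.59, adjusted p = 0.000640) and Pde4b (log2 0.56, adjusted p = 0.00160) rose together with Pde4a, while Pde3b (log2 -0.47) and Pde3a (log2 -0.35) fell. The call for Pde4a was lost with any CON library left out, or with 4H replicate 2 or 3 left out. It was also lost with no filter, a replicate block or quantile normalization (adjusted p where lost 0.0501 to 0.0837). That for Pde3a was lost with no filter and without CON replicate 2 or 3 or 4H replicate 1 or 3 (0.0611 to 0.109).

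The enzymes that process and recognise a cysteine start, as in Rgs16, Rgs4 and Rgs5, were all above the filter, and 4 of 7 rose, against 22.6% of all genes tested, and 1 fell, against 24.1%. Ate1, the arginyl transferase, went from 13.6 ± 0.627 to 20.5 ± 1.23 FPKM (log2 0.57, adjusted p = 0.000116). Ubr2, a ubiquitin ligase that binds arginylated proteins, fell from 34.2 ± 0.640 to 26.2 ± 0.737 FPKM (log2 -0.38, adjusted p = 0.000109). The others that rose, each with a log2 difference under that of Ate1, were the methionine aminopeptidases Metap1 and Metap2 and the ligase Ubr4, and the groups overlapped for Metap2. The calls for both aminopeptidases were lost with a replicate block and with no trend in the fit. Both were also lost without CON replicate 2 or 3 or 4H replicate 3. That for Metap1 was lost without 4H replicate 1 as well, and that for Metap2 with no filter or without 4H replicate 2. The adjusted p where lost was 0.0522 to 0.102 for Metap1 and 0.0789 to 0.131 for Metap2. Ubr1 (log2 -0.03) and Ado, which oxidises the cysteine (log2 0.12), did not pass. These are RNA levels, and no RGS protein was measured here.

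**Figure D4:**
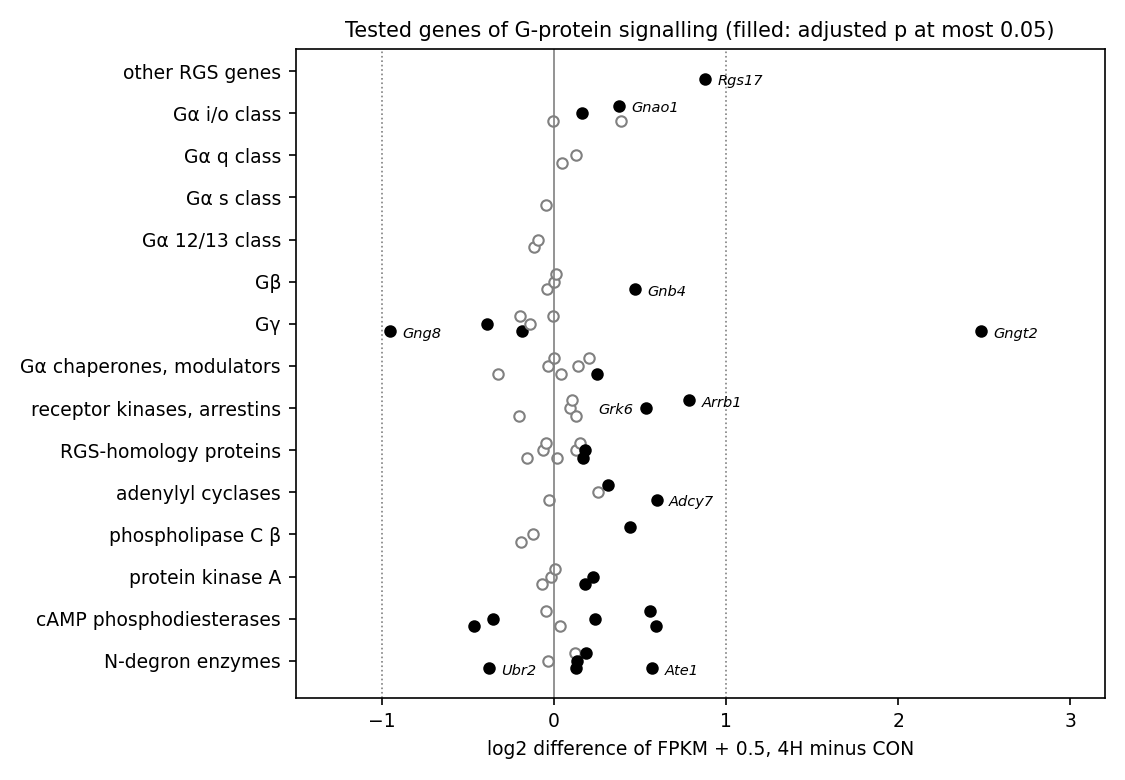
Log2 difference of FPKM + 0.5, 4H minus CON, for the 68 tested pathway genes in rows by function, filled where the adjusted p was at most 0.05, with dotted lines at -1 and 1. Gngt2 at 2.48 is the only gene beyond the lines, and Arrb1 (0.79), Adcy7 (0.60) and Ate1 (0.57) lie on the higher side while Gng8 (-0.95) and Ubr2 (-0.38) lie on the lower.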

How the data were processed

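RNA-seq of 6 C2C12 libraries was analysed, 3 of the CON group and 3 of the 4H group, grouped by the treatment given in the labels. The 4H libraries are numbered 1, 3 and 4 in their titles and are called replicates 1, 2 and 3 here, after the biosample numbers of their descriptions. The authors deposited FPKM values, 1 column per library. The build was mm10 per the submitters' processing notes, while how reads were aligned and counted, by which annotation and whether by strand, is not given in the sources used here. No column was left without a sample.

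Genes that averaged 0.5 FPKM or more over the 6 libraries (11593 of 22375 rows) were fitted with limma 3.58.1 in R 4.3.3 (eBayes with a trend) on log2(FPKM + 0.5), two-sided, with Benjamini-Hochberg adjustment over all of them. The pseudocount understates differences of low genes. A count model was not used, because FPKM are not counts. The thresholds were an absolute log2 difference of 1 and an adjusted p of 0.05. The fit was first tested on simulated data.

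The members and lists were chosen with earlier results of these data known. The text names all 10 members, other RGS genes that averaged 0.5 FPKM or more, and from each list every gene past both thresholds and the 2 largest changes past the adjusted p. Myod1, Myf5, Myog, Cd68, other pathway genes and neighbouring genes were named after their values were seen. Marker lists are given as sums.

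Gene positions, exons and coding starts came from GENCODE M21 (GRCm38), where the principal transcript was used. Promoters came from RefSeq (GRCm38.p6). Python 3.11.15 was used for tables and sequences, with numpy 2.4.6 and pandas 2.3.3, and matplotlib 3.10.9 for plots. Alternatives were pseudocounts of 0.1 and 1, no filter, a filter at a mean of 1 FPKM, a replicate block, no trend, TPM, median-of-ratios scaling, quantile normalization and each library left out. Rabbit diaphragm, other stretch times, RT-qPCR, siRNA and protein data were not analysed here.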

Additional observations from a re-analysis of the deposited data

How the results depend on the processing

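The log2 difference of Rgs16, for which the members were chosen, ranged from 3.28 with a pseudocount of 1 to 3.60 as the log2 ratio of mean FPKM, an alternative chosen after seeing the data. The signs for Rgs3, Rgs12, Rgs19 and Rgs20 were the same in all settings, while those of Rgs2 and Rgs10 changed with a library left out, as given above. The number of genes past both thresholds was 450, 703 after rescaling to TPM, the only such count to move by over 1.5 times, and 449 to 467 with each library left out. The TPM setting kept the filter and the pseudocount at 0.5 on a larger scale, so 12457 genes were tested, and a pseudocount of 0.1 alone gave 591. The 28 pathway genes past the adjusted p were 35 with TPM and 23 without CON replicate 3. With a replicate block there were 452 genes past both thresholds, and 24 pathway genes past the adjusted p, and Snx25 (0.0679), Metap1, Metap2 and Pde4a no longer met it. With the block or with any library left out, 3 members rather than 4 were higher by the adjusted p alone, the change being Rgs3, which describes a set chosen in the same contrast. The block used the biosample numbers 1, 2 and 3 of the sample descriptions, by which deviations of same-numbered libraries correlated at 0.0250, -0.0929 and -0.126, so they were not taken as pairs. CON replicate 3 was closest to 4H replicate 2 (0.176), which carries the number 3 in its title. The title numbers are shared by 2 pairs only, and no block was fitted on them. FPKM hold no depth, so levels under the filter, as for Rgs4, Rgs5 and Rgs14, have a counting error that cannot be estimated, and absence cannot be told from a level too low to detect.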

Other observations

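Tcea1, a transcription elongation factor gene 11666 bases from Rgs20, was at 59.9, 64.7 and 57.5 FPKM in CON and 38.7, 36.1 and 38.0 in 4H, so it was lower in all 4H libraries while Rgs20 was higher. Tcea2, 347 bases from Rgs19, was at 2.43, 2.18 and 2.77 FPKM in CON and 1.32, 1.56 and 2.43 in 4H, and its groups overlapped. Tial1, next to Rgs10, was at 34.1 to 38.5 FPKM in CON and 34.6 to 36.6 in 4H, and Nuf2, next to Rgs5, was at 40.5 to 45.1 and 41.0 to 44.6. Hgfac, Msantd1 and Slc34a1, next to Rgs12 and Rgs14, did not exceed 0.0607 FPKM in any library. These neighbours were chosen by position only, and no test of them was made.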
